A study of Homo sapiens with 8 samples.

Results

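The replication-dependent histone genes were followed through 8 RNA-seq libraries of 22RV1 and DU145 cells, both established human prostate cancer cell lines. Members were all genes in both count tables whose symbol starts with HIST1H, HIST2H, HIST3H or HIST4H, leaving out 13 symbols that end in PS or in PS and a digit. This gave 76 members among 58828 genes, of which RefSeq lists 70 as protein-coding genes and 6 as pseudogenes. By family they were 6 H1, 17 H2A, 23 H2B, 15 H3 and 15 H4 genes, with 55 in the large cluster on chromosome 6 whose symbols start with HIST1H.

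Each line had been transduced with lentivirus carrying an empty Tet-inducible vector or the same vector with PAGE4, selected with puromycin and given doxycycline in all cultures. Each culture received PBS or 200 mM H2O2 for 12 h, as the labels state the dose. The 4 groups of each line were therefore vector with PBS, vector with H2O2, PAGE4 with PBS and PAGE4 with H2O2. Every group is 1 library, so no difference between 2 libraries has a replicate check, and each construct in each line is 1 transduced culture.

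Total counts ranged from 25482984 to 43310401 per library. PAGE4, the transduced gene, had 0 or 1 count in the 4 vector libraries and 1001 to 1489 counts in the 4 PAGE4 libraries. The labelled lines were checked against their markers: 7 genes of the androgen receptor programme summed to 676.5 to 1760.4 CPM (counts scaled to library size) in 22RV1 libraries and 8.9 to 25.6 CPM in DU145 libraries. A list of 6 genes used as DU145 markers summed to 976.8 to 1225.6 CPM in DU145 and 306.0 to 412.1 CPM in 22RV1, and within it CD44 and LGALS1 did not separate the lines. Of 4 genes of fibroblasts and leukocytes, COL1A1 reached 27.05 CPM, while DCN, LUM and PTPRC stayed between 0 and 3.15 CPM.

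Replication-dependent histone genes supply the histones that package newly made DNA, and their mRNAs accumulate in S phase. These mRNAs normally carry no poly(A) tail: they end just after a conserved stem-loop that is bound by the stem-loop binding protein SLBP. Some members also give longer, polyadenylated transcripts that run past the stem-loop, a form known from differentiated and non-dividing cells. How RNA was selected for these libraries is not given in the sources used here, and a library made from poly(A) RNA would hold little of the stem-loop form. The levels below are levels in these libraries.

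The stem-loop was looked for as a pattern of 16 bases that starts with GG, ends with CC and has fixed T, T and A bases in between, within 100 bases after the stop codon, on the coding strand, in GENCODE release 44 and GRCh38. It was present in 67 of the 70 protein-coding members (95.71%) and in 110 of 19854 other protein-coding genes (0.554%). HIST1H3E, HIST1H2BI and HIST1H4L had no match in this window. The stem-loops of 6 members whose levels are described next are shown with the 16 matching bases in capitals, so that the stem and loop can be compared.
HIST1H2BK: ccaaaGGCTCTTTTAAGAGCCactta
HIST1H4C: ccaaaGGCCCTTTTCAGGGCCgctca
HIST1H4K: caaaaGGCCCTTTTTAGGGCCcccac
HIST2H2AC: ccaaaGGCTCTTTTTAGAGCCaccca
HIST2H2BE: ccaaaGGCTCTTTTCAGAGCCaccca
HIST1H1C: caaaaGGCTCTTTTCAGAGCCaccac

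These lie on GRCh38 at chr6:27146361-27146386 (minus strand), chr6:26104312-26104337 (plus), chr6:27831173-27831198 (minus), chr1:149887386-149887411 (plus), chr1:149886183-149886208 (minus) and chr6:26055739-26055764 (minus), in the order shown. Each sits at the end of the stem-loop form of the mRNA. Annotated HIST2H2BE transcripts run on to 1801 bases past the stop codon, and RefSeq transcripts of HIST1H2BK to 8125 bases past it. The 67 stem-loops had 7 different 16-base sequences. The form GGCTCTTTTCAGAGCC was in 40 members and none of them was an H4 gene. All 14 H4 stem-loops had the stem GGCCC on the left and GGGCC on the right, which no member of another family had on both sides.

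RefSeq on GRCh38.p14 gave 69 promoter windows of members, from 250 bases before to 50 after a start site. The counts below are of windows, since HIST1H2BK, HIST1H2BD, HIST1H3D and HIST1H3E each have more than 1. The octamer ATTTGCAT, searched on both strands, was in 11 of 16 H2A and 15 of 20 H2B windows. It was in 1 of 14 H3 windows, 0 of 13 H4 windows and 0 of 6 H1 windows, against 1.7% of 35047 windows of other genes. The H3 window with the octamer is given for HIST1H3D but is the same stretch as the window of the H2A gene HIST1H2AD. The other HIST1H3D window lacks the octamer. CCAAT, on both strands, was in every H1, H2A, H2B and H3 window and in 3 of 13 H4 windows, against 34.5% of the other windows. TATAAA was in 50% to 75% of the windows of each family, against 11.4% of the others. No motif searched contains another.

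Most H2A and H2B genes lie back to back. With start sites less than 350 bases apart and transcription in opposite directions, 15 pairs were found, of which 14 joined an H2A and an H2B gene. HIST2H2BE and HIST2H2AC are such a pair, with 235 bases between their annotated starts, and their values after H2O2 are described further on. The promoter window of HIST2H2AC is shown because it also holds the start of HIST2H2BE, with the 3 motifs on either strand in capitals (chr1:149886668-149886967, plus strand).
HIST2H2AC promoter: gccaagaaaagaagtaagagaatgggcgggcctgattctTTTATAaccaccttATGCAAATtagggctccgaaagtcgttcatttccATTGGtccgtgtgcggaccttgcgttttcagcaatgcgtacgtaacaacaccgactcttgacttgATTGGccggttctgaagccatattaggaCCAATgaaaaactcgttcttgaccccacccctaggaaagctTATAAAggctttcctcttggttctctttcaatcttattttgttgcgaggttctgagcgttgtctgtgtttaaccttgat

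The members together held a small part of every library. In 22RV1 they took 0.0140% of all counts with vector and PBS and 0.0157% with vector and H2O2. With PAGE4 the 22RV1 shares were 0.0143% with PBS and 0.0152% with H2O2. In DU145 the shares were 0.0158% and 0.0181% with vector, PBS first, and 0.0146% and 0.020% with PAGE4. The exact 95% binomial intervals, which cover counting error only, excluded the PBS share in each of the 4 H2O2 libraries, since the nearest pair had an upper bound of 0.0147% with PBS and a lower bound of 0.0148% with H2O2.

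The scale matters for this sum. CPM values use library sizes scaled by TMM (trimmed mean of M values, a scaling that sets the bulk of genes equal between libraries). On that scale the members summed to 135.0, 139.8, 139.1 and 137.2 CPM in 22RV1, in the order vector PBS, vector H2O2, PAGE4 PBS and PAGE4 H2O2. The same order gave 174.6, 190.8, 160.4 and 211.6 CPM in DU145. The H2O2 library was the higher of its pair in both DU145 cultures and in 22RV1 vector cells, and slightly the lower in 22RV1 PAGE4 cells. HIST1H2BK alone went from 10.69 to 21.61 CPM with vector and from 12.45 to 18.82 CPM with PAGE4 in 22RV1. In DU145 it went from 35.13 to 60.44 CPM with vector and from 32.09 to 65.56 CPM with PAGE4. In the vector cells of both lines its rise was larger than that of the sum.

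**Figure D1:**
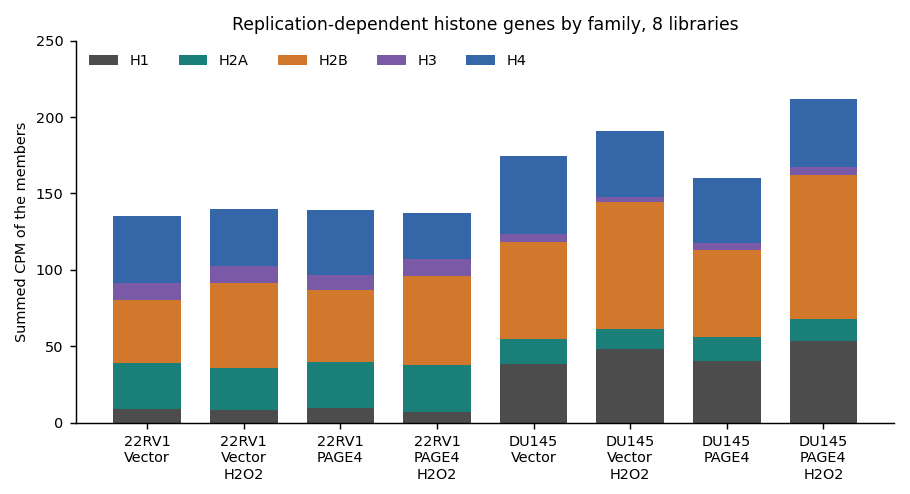
Stacked bars give the summed CPM (TMM-scaled) of the members of each histone family in each of the 8 libraries, with 1 library per bar. H2B was the largest family in 7 of the 8 bars, the exception being 22RV1 Vector with PBS, and H1 stood at 38.39 to 53.27 CPM in DU145 against 6.85 to 9.65 CPM in 22RV1.

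Few genes made up this sum. The 5 highest members held 62.9% of the summed CPM and the 10 highest held 80.4%. At the other end, 5 members had no count in any library (HIST1H2BA, HIST1H2AD, HIST1H3D, HIST1H4G and HIST1H2AK), which allows up to 3 counts per library, or 0.067 to 0.121 CPM. RefSeq places HIST1H2AD inside the span of HIST1H3D on the same strand. How overlapping reads were counted is not given, so for HIST1H2AD and HIST1H3D this is no bound on the level. A further 33 members had fewer than 80 counts over the 8 libraries and were not tested. The 38 members tested (50%, against 34.2% of all genes) included 1 pseudogene, HIST2H2BC.

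The linker histones H1, which bind DNA between nucleosomes, were nearly all HIST1H1C in DU145 and for the larger part HIST1H1C in 22RV1. It had 6.09, 5.69, 7.17 and 4.31 CPM in 22RV1 and 35.35, 46.53, 37.69 and 50.79 CPM in DU145, in the same library order. HIST1H1E was between 1.55 and 3.0 CPM in all 8 libraries, and HIST1H1B and HIST1H1D were below 1 CPM in all of them.

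Among the core histones, HIST1H2BK (H2B) had the highest mean, at 32.10 CPM, followed by HIST1H4C (H4) at 24.60 CPM. Per kilobase of annotated exons these 2 genes had 64.85 and 60.74 CPM, and HIST1H1C had 33.11. The length used for HIST1H2BK, 495 bases, leaves out its longer RefSeq 3' end. HIST2H2BE (H2B) had a mean of 12.13 CPM, but only 5.45 CPM per kilobase because its annotated exons include the long 3' end. HIST3H2A led the H2A genes at 8.29 CPM, HIST1H3H the H3 genes at 4.74 CPM. Which annotation the authors counted on is not given in the sources used here, so values per kilobase depend on the GENCODE lengths used.

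**Figure D2:**
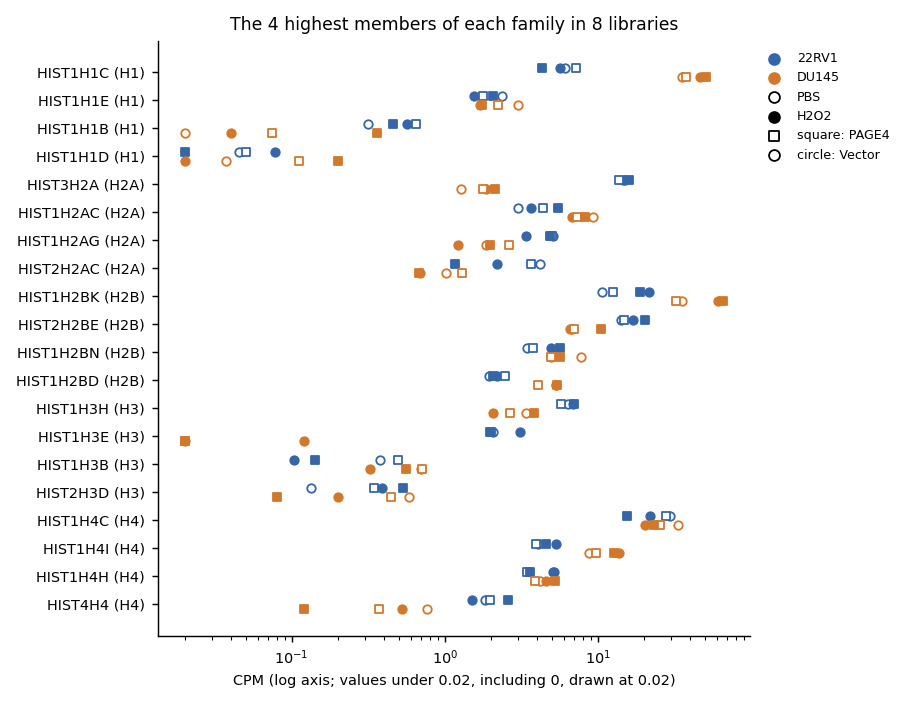
Points give the CPM (log axis) of the 4 members of each family with the highest mean, in the 8 libraries, blue for 22RV1 and orange for DU145, open for PBS and filled for H2O2. HIST1H1C and HIST1H2BK lie to the right in DU145, while HIST3H2A and HIST1H3E lie to the right in 22RV1.

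Several members share sequence with a copy, and counting could have split or dropped their reads. HIST2H4A and HIST2H4B, HIST2H3A and HIST2H3C, and HIST2H2AA3 and HIST2H2AA4 shared 99.1% to 100% of their 100-base windows. HIST1H4K shared 91.3% of its windows with HIST1H4J, HIST2H2BD 94.4% and HIST2H2BC 77.3% with each other, and HIST1H2AI 58.8% with HIST1H2AJ. HIST2H4A had a mean of 0.82 CPM against 0.26 CPM for HIST2H4B, and both HIST2H3A and HIST2H3C were under 0.2 CPM in every library. Values of these genes are uncertain for that reason. The other 5 members that RefSeq calls pseudogenes were all below the count limit for testing: HIST2H2BD had 76 counts in all, HIST3H2BA had 28, HIST2H2BA 19, HIST2H2BB 2 and HIST2H3DP1 1.

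The H2O2 question is how an oxidative exposure moved these genes. Over the 4 pairs of PBS and H2O2 libraries, HIST1H2BK and HIST1H4K rose and HIST2H2AC and HIST1H4C fell, and the other 34 members tested did not pass. All p-values for this and the next comparisons are from edgeR's quasi-likelihood test with the pairs as blocks, adjusted by Benjamini-Hochberg over 20136 genes. The 2 members that rose stand beside 10.3% of all genes tested that rose, and the 2 that fell beside 12.5%. Pairs of a line come from related cultures, so these p-values do not rest on independent replicates. The median log2 change was -0.23 over the 38 members and -0.04 over all genes tested.

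The call depends on how strict the test is. When each pair was left out in turn, 1 or 2 members passed in place of 4. Of all genes, 1910 to 3905 passed in these fits in place of 4594. They tested 33 to 41 members. At an adjusted p under 0.01, a limit chosen after the data were seen, only HIST1H2BK passed, beside 1467 of all 20136 genes tested.

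HIST1H2BK encodes an H2B that is also known as a polyadenylated form. It had 10.69 CPM with PBS and 21.61 CPM with H2O2 in 22RV1 vector cells, and 12.45 and 18.82 CPM with PAGE4. In DU145 it went from 35.13 to 60.44 CPM with vector and from 32.09 to 65.56 CPM with PAGE4. It was higher with H2O2 in 4 of 4 pairs, and the log2 change was 0.86 (SE 0.12, edgeR adjusted p = 0.004). It passed in each line, at 0.81 in 22RV1 and 0.91 in DU145, and under all 10 alternatives of the fit over 4 pairs. RefSeq gives HIST1H2BK a span from 27138293 to 27146858 on chromosome 6, which contains HIST1H4I on the other strand. Use of strand in counting is not stated, so reads of the 2 genes cannot be told apart there.

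HIST1H4I, an H4 gene, had 4.04 and 5.30 CPM with PBS and H2O2 in 22RV1 vector cells, then 3.94 and 4.55 CPM with PAGE4. In DU145 it had 8.75 and 13.71 CPM with vector and 9.68 and 12.73 CPM with PAGE4. The H2O2 library was the higher one in 4 of 4 pairs, with a log2 difference of 0.41 (SE 0.16) over the pairs that did not pass (edgeR adjusted p = 0.102). In DU145 alone the log2 change was 0.52. It passed with edgeR (edgeR adjusted p = 0.0352) but not with DESeq2's Wald test (DESeq2 adjusted p = 0.129).

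HIST1H4K had low counts. With PBS and H2O2 it had 2 and 15 counts in 22RV1 with vector, then 2 and 7 counts with PAGE4, and in DU145 13 and 39 counts with vector, then 17 and 26 counts with PAGE4. The log2 change over the pairs was 1.70 (SE 0.49, edgeR adjusted p = 0.044), and it did not pass when any pair was left out. Its copy HIST1H4J had at most 9 counts in a library.

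HIST1H4C, the highest H4 gene, fell. It had 29.38 and 21.79 CPM with PBS and H2O2 in 22RV1 vector cells, then 27.71 and 15.57 CPM with PAGE4. In DU145 it had 33.27 and 20.28 CPM with vector, but 25.60 and 23.21 CPM with PAGE4, where the counting interval of the log2 difference (-0.30 to 0.02) included 0. The log2 change was -0.53 over the pairs (SE 0.14, edgeR adjusted p = 0.0341). Scaling by total counts ended this call, as did leaving out either 22RV1 pair or the DU145 vector pair. HIST1H4C lies inside the annotated span of HIST1H2BC, on the other strand.

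HIST2H2AC, an H2A gene, had 4.15 and 2.20 CPM with PBS and H2O2 in 22RV1 vector cells, then 3.67 and 1.17 CPM with PAGE4. In DU145 it had 1.02 and 0.69 CPM with vector and 1.30 and 0.68 CPM with PAGE4. The log2 change was -1.05 (SE 0.28, edgeR adjusted p = 0.033). It was lower with H2O2 in 4 of 4 pairs, and the call was lost when any pair was left out. Its back-to-back partner HIST2H2BE had 14.20 and 16.88 CPM, then 14.71 and 20.41 CPM in 22RV1, and 6.77 and 6.53 CPM, then 6.97 and 10.53 CPM in DU145. The HIST2H2BE difference was 0.32 on the log2 scale (SE 0.15) and did not pass (edgeR adjusted p = 0.175).

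**Figure D3:**
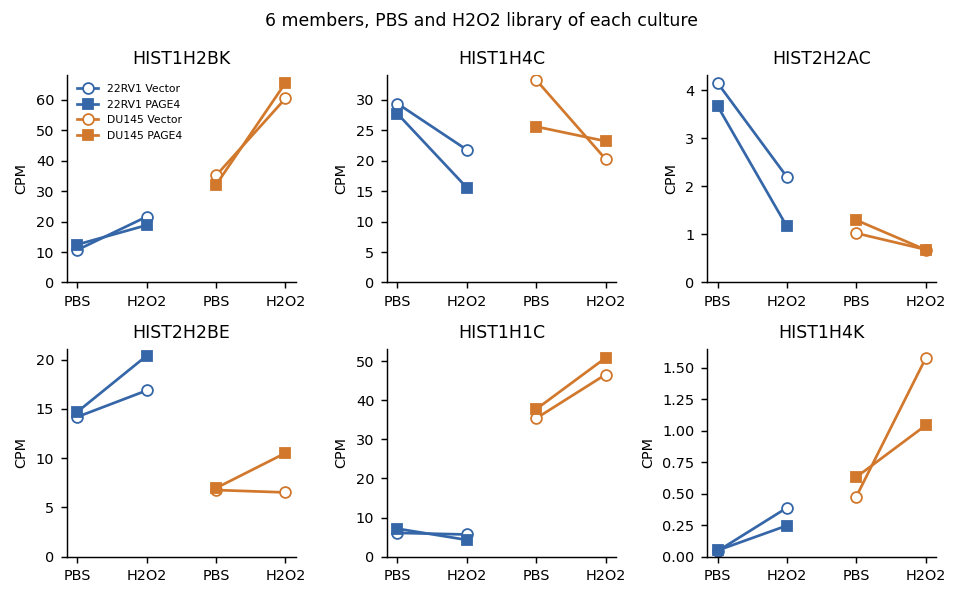
Each line joins the PBS and the H2O2 library of 1 culture, with CPM on an axis from 0, for 6 members. HIST1H2BK is higher with H2O2 in all 4 cultures and HIST1H4C and HIST2H2AC are lower in all 4, while HIST1H1C is higher in DU145 and lower in 22RV1.

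The remaining genes with the largest differences over the pairs did not pass. HIST1H3B had -1.18 on the log2 scale (SE 0.46, edgeR adjusted p = 0.1), HIST1H3I -1.08, HIST1H2BE -1.05 and HIST1H2BG -0.85. On the other side HIST1H1B had 0.70 and HIST1H3E 0.47. Of the 38 members tested, 8 were lower with H2O2 in all 4 pairs, against 23% of all genes tested, and 5 were higher in all 4, against 20.4%.

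Members were also split by whether an annotated transcript runs more than 200 bases past the stop codon, a split made with the values known and therefore given without a test. Among the 16 tested members with a longer 3' end, 12 had a positive and 4 a negative log2 change, with a median of 0.08. Among the 21 tested members annotated only to the stem-loop, 6 were positive and 15 negative, with a median of -0.39. The summed CPM of the 18 members with a longer end was higher with H2O2 in all 4 pairs: 70.78 and 88.30, 73.58 and 93.79, 80.66 and 98.01, and 70.89 and 112.18. Without HIST1H2BK the 17 others gave 60.09 and 66.69, 61.13 and 74.97, 45.53 and 37.58, and 38.80 and 46.62, so that the H2O2 library was then the lower one in DU145 vector cells. The sum of the 52 members annotated only to the stem-loop went from 61.72 to 49.91 and from 62.84 to 42.59 in 22RV1. In DU145 it went from 93.18 to 91.52 and from 88.40 to 98.69. HIST1H1C is in this sum, though it is also among the members listed as known to give polyadenylated mRNA. Alone it went from 6.09 to 5.69 and from 7.17 to 4.31 in 22RV1. In DU145 HIST1H1C went from 35.35 to 46.53 and from 37.69 to 50.79, the latter a larger rise than that of the sum.

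Of the 10 members listed as known to give polyadenylated mRNA, 9 were tested. HIST1H2BK rose and the other 8 did not pass over the 4 pairs, among them HIST1H2AC (0.08), HIST1H2BD (0.08), HIST1H4H (0.15), HIST3H2A (0.23), HIST1H2BC (-0.44) and HIST1H2BJ (-0.23). Small RNAs that carry no poly(A) tail were at low levels and moved too. A list of 30 such RNAs summed to 9.1 to 15.8 CPM in PBS libraries and 16.9 to 26.3 CPM in H2O2 libraries, the higher one in each pair. Of its 9 tested genes RNU5A-1 (2.57) and SNORD3A (2.56) rose. The part of this in the histone values was not tested.

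In 22RV1 alone, 2 members rose (15% of all genes tested rose) and 3 fell (16.7% fell). HIST1H2BK (0.81) and HIST1H4K (2.66) rose. HIST1H4C (-0.62), HIST2H2AC (-1.25) and HIST1H2BE (-1.53) fell. DESeq2's Wald test called HIST1H2BK and HIST1H4C in 22RV1, beside 4580 of all 20136 genes. HIST2H2AC did not pass it (DESeq2 adjusted p = 0.0657), and HIST1H4K and HIST1H2BE were given no adjusted p. HIST1H2BE had 64 and 26 counts with vector and 45 and 7 counts with PAGE4, PBS first. Scaling by total counts ended its call (edgeR adjusted p = 0.0562).

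In DU145 alone, 3 members rose (19% of all genes tested rose) and 2 fell (22.4% fell). HIST1H2BK (0.91), HIST1H1C (0.41) and HIST1H4I (0.52) rose. HIST1H4C (-0.43) and HIST1H2AI (-1.76) fell. DESeq2's Wald test called only HIST1H2BK in DU145, beside 6659 of all 20136 genes. HIST1H1C (DESeq2 adjusted p = 0.0616), HIST1H4C (0.0731), HIST1H4I (0.129) and HIST1H2AI (0.0783) did not pass it. Scaling by total counts also ended the HIST1H4C call in DU145 (edgeR adjusted p = 0.0504). At an edgeR adjusted p under 0.01 HIST1H2BK was left in DU145, beside 6233 of all genes. HIST1H2BK, HIST1H4C and HIST2H2AC were left in 22RV1, beside 4248 of all genes.

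The H2O2 effect differed between the lines for 2 members, against 19.1% of all genes tested. For HIST1H1C the log2 effect in 22RV1 minus that in DU145 was -0.81 (SE 0.21, edgeR adjusted p = 0.00976). For HIST1H2AI it was 2.56 (SE 0.77, edgeR adjusted p = 0.0237). HIST1H2AI had 22 and 42 counts in 22RV1 with vector, then 29 and 28 counts with PAGE4, and in DU145 45 and 17 counts with vector, then 27 and 4 counts with PAGE4. Its copy HIST1H2AJ differed in the opposite direction (-2.59), which did not pass (edgeR adjusted p = 0.14).

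**Figure D4:**
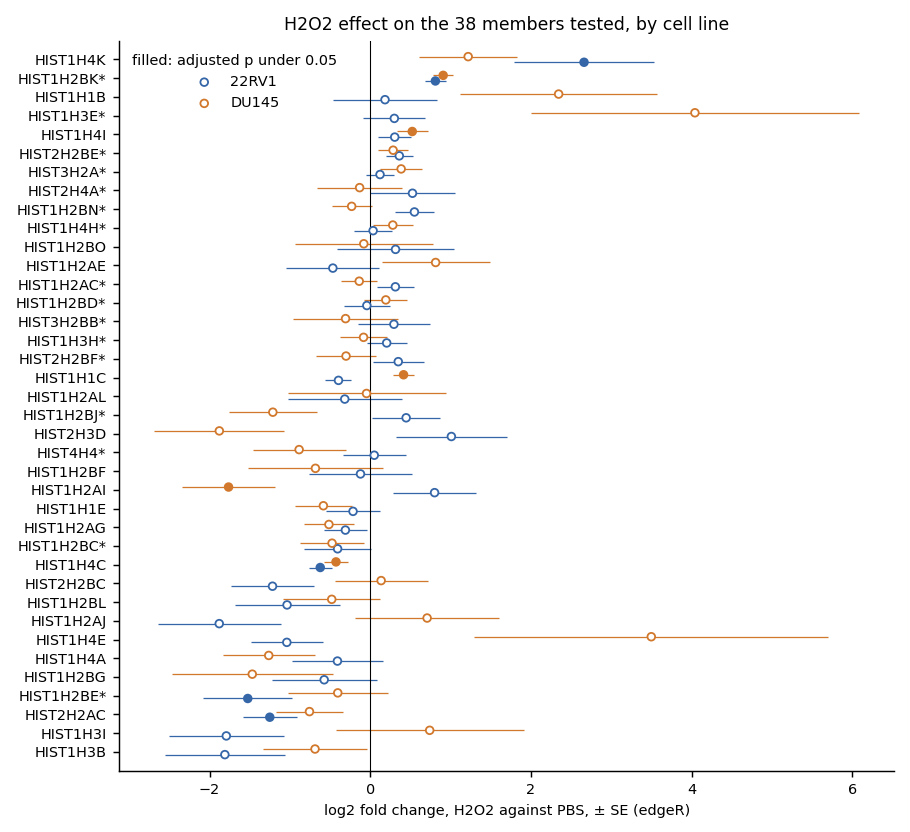
Points give the log2 fold change of H2O2 against PBS in 22RV1 (blue) and DU145 (orange) for the 38 members tested, with bars of 1 SE from edgeR, filled where the adjusted p was under 0.05 and with an asterisk on genes with a longer annotated 3' end. HIST1H2BK and HIST1H4C are the 2 genes filled in both lines, and HIST1H3E and HIST1H4E have wide bars in DU145, where they had at most 3 counts.

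Single pairs were compared at 1.5-fold without a test, for genes whose scaled counts averaged 10 or more within a line. With the vector in 22RV1, 7 of 39 members were higher and 10 lower with H2O2, against 16.6% and 19.9% of all genes. In 22RV1 PAGE4 cells 5 were higher and 12 lower, against 14.4% and 14.9%. In DU145 vector cells 5 of 30 were higher and 14 lower, against 18.4% and 23.4%. In DU145 PAGE4 cells 3 were higher and 8 lower, against 17.9% and 24.8%. Of the 17, 17, 19 and 11 members past the fold in these pairs, 14, 13, 13 and 5 had a 95% counting interval that left out 0. These intervals were computed for members only, so no share over all genes stands beside them.

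The genes that accompany histone supply are given for their own values. SLBP had 121.5 and 90.55 CPM, then 123.3 and 85.49 CPM in 22RV1, and fell there (log2 change -0.48, edgeR adjusted p = 0.000159). In DU145 it had 116.93 and 128.45 CPM, then 118.45 and 129.35 CPM, a difference of 0.13 that did not pass. The H2O2 effect on SLBP differed between the lines (-0.61, edgeR adjusted p = 0.000902). NPAT, a coactivator of histone genes, did not pass in any of these comparisons.

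Of 29 genes of histone mRNA processing and transcription, 4 rose and 4 fell with H2O2 over the pairs. CCNA2, an S phase cyclin (-0.95), and CPSF3, the endonuclease that cuts histone pre-mRNA (-0.55), fell. UPF1, a helicase used in histone mRNA decay (0.76), and COIL, the Cajal body scaffold (0.51), rose. ZNF473, a protein of the histone pre-mRNA processing complex, had 0.69 and did not pass.

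Of 42 S phase genes 19 fell and 0 rose over the pairs, with a median of -0.34. Those that fell included POLD1 (-0.81), POLA2 (-0.79), GINS1 (-0.73) and PRIM1 (-0.73). In 22RV1 34 of the 42 fell and 0 rose, while in DU145 18 fell and 9 rose. Of 7 genes of p53 signalling and arrest, 6 rose over the pairs, including CDKN1A, which encodes the cell cycle inhibitor p21 (2.62), GADD45A (2.55), SESN2 (2.52), BTG2 (2.02) and PPM1D (1.04). Histone members and S phase genes are read here side by side only, since the cell cycle was not measured.

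Of 22 histone chaperones 8 fell and 2 rose. HJURP (-1.0), ASF1B (-0.68), CABIN1 (-0.55) and TONSL (-0.52) fell, and UBN1 (0.53) rose. Of 18 replication-independent histones 12 were tested, and 5 fell and 1 rose. CENPA, the centromeric H3 (-1.72), H2AFV (-0.68) and H1F0 (-0.42) fell, while H3F3B (0.40), which encodes H3.3, rose. H2AFY2 had -0.35 and did not pass. H2AFX, the damage-marking H2A, fell in 22RV1 (-0.79) and had 0.11 in DU145, where it did not pass, and its effect differed between the lines (-0.90).

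The PAGE4 question is whether the transduced gene moved the histone genes. Over the 4 pairs of vector and PAGE4 libraries, no member passed edgeR's quasi-likelihood test, against 0.189% of all genes tested. No member had an unadjusted p under 0.05 in that fit, against 1641 of the 20136 genes tested. DESeq2 called 0 members but gave no adjusted p to 12 of the 38. The median log2 difference was 0.01 over members. The largest differences were HIST1H2BO (1.23, SE 0.57) and HIST1H2AJ (-1.06, SE 0.60). Of the 38 members 1 was lower with PAGE4 in all 4 pairs, against 8.19% of all genes tested, and 4 were higher in all 4, against 7.41%.

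In 22RV1 HIST2H2BF, an H2B gene with a longer annotated 3' end, rose with PAGE4, the 1 member called against 5.33% of all genes tested. It had 1.43 and 3.70 CPM with PBS, vector first, and 1.76 and 4.84 CPM with H2O2 (log2 change 1.41, SE 0.32, edgeR adjusted p = 0.0108). In DU145 it had 1.5 and 1.45 CPM with PBS and 1.61 and 0.84 CPM with H2O2, and no member passed there, against 0.328% of all genes tested. In DU145 3 of the 38 members had an unadjusted p under 0.05 by edgeR, against 1632 of the 20136 genes tested. DESeq2 called 0 members there but gave no adjusted p to 25 of the 38. The effect on HIST2H2BF differed between the lines (1.88, SE 0.49, edgeR adjusted p = 0.047), again the 1 member called against 2.49% of all genes tested. It was not called by DESeq2 in either comparison, nor at an adjusted p under 0.01. The annotated span of HIST2H2BF overlaps FCGR1A, and 15.4% of its windows are shared with other H2B genes.

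The other members with the largest PAGE4 differences had few counts and did not pass. These were HIST1H2BO (1.63) and HIST1H2AJ (-1.25) in 22RV1, and HIST1H3E (-3.98), HIST1H4E (-3.44) and HIST1H1B (3.23) in DU145. In DU145 HIST1H1B had 0, 1, 2 and 9 counts, and HIST1H3E and HIST1H4E had at most 3. In single pairs 9 of 39 members passed 1.5-fold in 22RV1 cells with PBS and 13 of 39 with H2O2, against 18.2% and 21.9% of all genes. In DU145 8 of 30 passed with PBS and 13 of 30 with H2O2, against 17.4% and 17.5%. Of the 9, 13, 8 and 13 members past the fold in these pairs, 7, 9, 2 and 7 had a counting interval that left out 0. As for the H2O2 pairs, the intervals were computed for members only, so no share over all genes stands beside them.

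Comparing 22RV1 with DU145 over 4 matched pairs, 13 members were higher in 22RV1, against 33.1% of all genes tested, and 7 were lower, against 29.9%. At an adjusted p under 0.01, 15 of these 20 remained, as did 9858 of the 12670 genes called in all. The lines stand for 1 culture lineage each, so line and culture cannot be told apart.

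Higher in 22RV1 were HIST3H2A (log2 difference 3.09, SE 0.20, edgeR adjusted p = 1.14e-05) and its back-to-back partner HIST3H2BB (2.15). HIST3H2A had 13.77 to 15.96 CPM in 22RV1 and 1.28 to 2.12 CPM in DU145. Both genes of the back-to-back pair HIST2H2AC (1.52) and HIST2H2BE (1.12) were higher in 22RV1 too, as were both of the pair HIST1H2AG (1.28) and HIST1H2BJ (1.36). Others were HIST4H4 (2.19), HIST1H1B (2.38), HIST1H3H (1.15), HIST1H2AL (1.67) and HIST1H2BG (1.58). HIST1H1B, HIST1H2AL and HIST1H2BG had at most 11 counts in any DU145 library. They and HIST1H2BJ did not pass at an adjusted p under 0.01.

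HIST1H3E and HIST1H4E were nearly absent from DU145. HIST1H3E had 92, 120, 81 and 56 counts in 22RV1 and 0, 3, 0 and 0 counts in DU145, in the library order used above. HIST1H4E had 76, 43, 127 and 32 counts in 22RV1 and 0, 2, 0 and 0 in DU145. Against a floor of 3 counts per library, HIST1H3E was at least 18.7-fold higher in 22RV1 in vector cells with PBS, at least 18.1-fold in PAGE4 cells with PBS and at least 16.5-fold in PAGE4 cells with H2O2. For HIST1H4E these bounds were 15.5, 28.3 and 9.4.

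Lower in 22RV1 were HIST1H1C (-2.87, SE 0.21, edgeR adjusted p = 2.1e-05), HIST1H4K (-2.56) and HIST1H2BK (-1.59). HIST1H4I (-1.31), HIST1H2BD (-1.20), HIST1H2BC (-0.99) and HIST1H2AC (-0.96) were lower as well. Of the members lower in 22RV1, HIST1H2BC did not pass at an adjusted p under 0.01. For HIST1H1C and HIST1H2BK every DU145 library was above every 22RV1 library. The 9 tested members listed for polyadenylated mRNA were split, with 3 higher in 22RV1 and 5 higher in DU145.

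**Figure D5:**
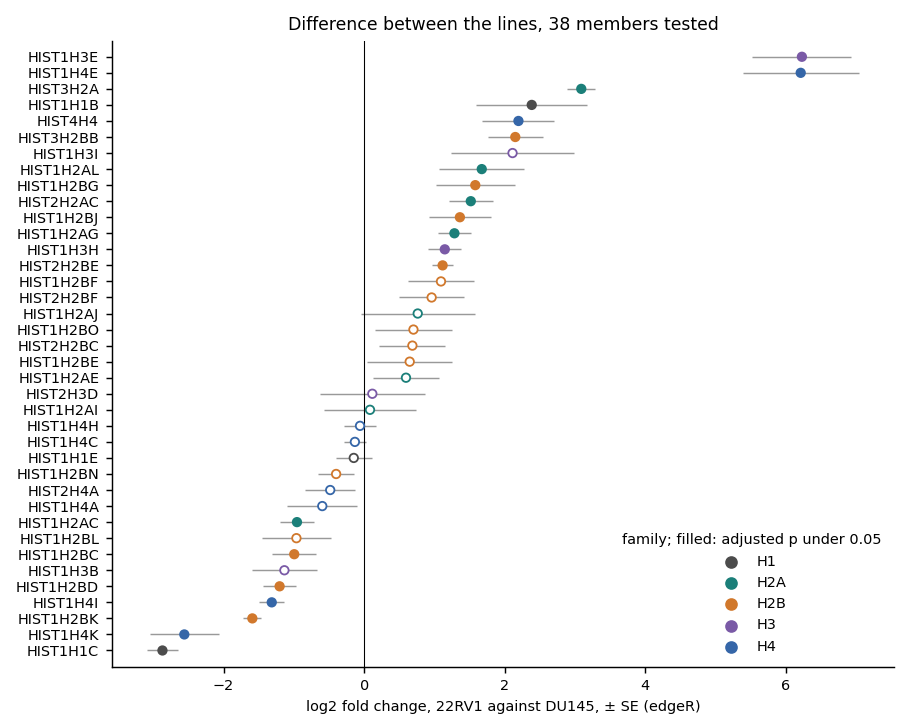
Points give the log2 difference of 22RV1 minus DU145 over 4 matched pairs for the 38 members tested, coloured by family, with bars of 1 SE from edgeR and filled where the adjusted p was under 0.05. HIST1H3E and HIST1H4E stand at the 22RV1 end, and HIST1H1C, HIST1H4K and HIST1H2BK at the DU145 end.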

How the data were processed

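RNA-seq was run on 8 libraries, 1 per condition. Per the labels and methods, HISAT2 2.1.0 (GRCh38) and featureCounts 1.6.0 were used, and what the authors deposited are unnormalized read counts, 1 table per line. Strand, multi-mapping and RNA selection are not given in the sources used here. Groups follow the labels.

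Genes with at least 80 counts over the 8 libraries were tested with edgeR 4.0.16 (TMM, quasi-likelihood test, pairs as blocks, adjusted p under 0.05). CPM used the same scaling. Single pairs used a pseudocount of 0.5, exact 95% binomial intervals and 1.5-fold. Coordinates are those of GENCODE release 44.

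The code was tested on simulated data. It recovered the changed genes, but when genes kept their own spread, the share of false calls was above the nominal level in every draw, so calls near the limit are less certain than their adjusted p states. An adjusted p under 0.01 was added as an alternative for this reason, after the data were seen.

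The members and lists were chosen with earlier results of these data known. Named genes are the 4 highest of each family, the extremes of each comparison, the polyadenylated list, up to 5 of each other list, and copies and pseudogenes. One gene that this rule names is not reported here. Other members are named where a test called them. Alternatives were DESeq2 1.42.0 size factors, total counts, other filters, DESeq2's Wald test, the line as block, each pair left out, and other limits for single pairs.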

Additional observations from a re-analysis of the deposited data

Results flagged for a closer look

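The effect of H2O2 or of PAGE4 differed between the lines for 3 members, by a test of the difference itself. The H2O2 effect on HIST1H1C was lower in 22RV1 than in DU145 by a log2 difference of -0.81, and passed under all 5 alternatives run. The H2O2 effect on HIST1H2AI differed by 2.56 and rests on 4 to 45 counts per library, with a copy, HIST1H2AJ, that shares much of its sequence. The PAGE4 effect on HIST2H2BF differed by 1.88 and was lost with DESeq2's Wald test and at an adjusted p under 0.01.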

How the results depend on the processing

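The number of members called held within 1.5 times under DESeq2 size factors, total counts, no filter and the line as block. Directions shifted for H2O2 in 22RV1, where the main fit called 2 members higher and 3 lower. Of all genes 3013 and 3353 were called there. Total counts gave 4 and 2 members, beside 4264 and 2399 genes. No filter gave 2 and 5 members, beside 2499 and 3870 of 41771 genes. With a total of at least 400 counts, only 15 members were tested. Of these, 3 passed for H2O2 in 22RV1, 1 for its difference between the lines and 10 between the lines. Of all 14648 genes in those fits, 6071, 3788 and 10110 passed. DESeq2's Wald test called 2 members for H2O2 in 22RV1, 1 in DU145 and 1 for the difference. For PAGE4 it called 0 in 22RV1 and 0 for its difference. In the same order, 4580, 6659, 2730, 652 and 340 of all 20136 genes were called. No adjusted p was given to 14, 7, 23, 23 and 25 of the 38 members. Among them were HIST1H2BE and HIST1H4K in 22RV1 and HIST1H2AI for the difference. HIST2H2AC in 22RV1 and HIST1H1C, HIST1H4C, HIST1H4I and HIST1H2AI in DU145 had an adjusted p and did not pass. The same held for HIST2H2BF in both PAGE4 fits. At an edgeR adjusted p under 0.01, chosen after the data were seen, 3, 1, 1, 0 and 0 members passed in these 5 comparisons. For H2O2 over 4 pairs 1 passed. Of all genes, 4248, 6233, 2149, 526 and 210 passed, and 1467 over the 4 pairs. Leaving out each pair gave 1 to 2 members for H2O2 over 4 pairs, beside 1910 to 3905 of all genes. Total counts gave 2856 genes higher and 1823 lower with H2O2, against 2072 and 2522, and moved the median of all genes in 22RV1 from -0.01 to 0.11. HIST1H2BK passed in every fit run of the H2O2 effect over 4 pairs and within each line.

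For single H2O2 pairs (22RV1 vector, 22RV1 PAGE4, DU145 vector, DU145 PAGE4), over 2-fold gave 8, 11, 10 and 5 members, no count minimum 40, 39, 49 and 35, and a mean of at least 50 gave 5, 5, 8 and 2. For single PAGE4 pairs (22RV1 PBS, 22RV1 H2O2, DU145 PBS, DU145 H2O2), no minimum gave 24, 34, 36 and 37. A mean of at least 50 gave 2, 4, 1 and 4, and over 2-fold gave 7, 2 and 4 in the last 3. Shares over all genes at these other limits are not given here. The counts therefore do not show whether members differ from other genes. Without mitochondrial genes in the denominator the members' shares were 0.0159%, 0.0173%, 0.0159% and 0.0167% in 22RV1 and 0.0190%, 0.0204%, 0.0171% and 0.0225% in DU145, in the order of the report. Members under 80 counts were tested only without the filter, where 71 members gave 7 calls for H2O2 in 22RV1 and 23 between the lines. Of all 41771 genes in those fits, 6369 and 14171 were called.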
